A study of Mus musculus with 12 samples.

Results

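Genes made by the cells that build and resorb bone were read in RNA from whole dorsal root ganglia (DRG), with the skin of the hind paw beside them. The 8 genes, of 22609 gene symbols counted, are Acp5 and Ctsk of osteoclasts, Ibsp, Sp7, Alpl and Spp1 of osteoblasts, and Dmp1 and Phex of osteocytes. They were selected on their measured counts in these libraries, so their levels in DRG and hind paw are given as a description and carry no test.

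The study compared female with male C57BL/6J mice in tissues of the pain pathway. Its 12 RNA-seq libraries came from female DRG, male DRG, female hind paw and male hind paw, with 3 libraries in each group. By the labels the mice were 8 to 14 weeks old and all groups had 20 µl of saline injected into the paw, but the study's methods call the mice naïve, put their age at 8 to 12 weeks and place the females in estrus. The DRG were whole ganglia, with neurons, glia, vessels and connective tissue together, and the hind paw samples were punches of skin with some fat. Neither source says whether a library came from 1 mouse or from several, so a p-value measures the spread between these libraries, which may in part be technical.

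Between 8988497 and 13327072 reads per DRG library, and between 6866545 and 13470783 per hind paw library, were counted on genes. A pair of libraries stood apart. Male hind paw library 2 had 13.6% of its listed reads on genes, against 23.8% to 28.1% in the others, and male DRG library 1 held 2235 CPM (counts scaled to a fixed library total) of 11 skeletal muscle genes, against 65.7 to 553 in the other DRG libraries. The labels of tissue and sex were checked on marker genes. Of genes with 10 counts in 3 libraries of each tissue, all 8 sensory neuron genes were higher in DRG. All 7 keratinocyte and all 11 skeletal muscle genes with as many reads were higher in hind paw. A further 6 sensory neuron genes passed this filter on DRG reads alone and 2 keratinocyte genes on hind paw reads alone. This largely fixed their direction, and they were higher in that tissue. Xist, made from the inactive X chromosome, was higher in females by 8.81 (log2) in DRG and 10.26 in hind paw, and Ddx3y of the Y chromosome was higher in males in both tissues, with log2 fold changes of -9.92 and -11.12.

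Bone is resorbed by osteoclasts, large cells of the monocyte line that seal off a patch of bone and dissolve it with acid and with enzymes such as cathepsin K. It is laid down by osteoblasts, which secrete collagen and mineral-binding glycoproteins and, once buried in the matrix they made, become osteocytes that sense load and govern phosphate. The ganglia lie beside the vertebrae, whose bone encloses marrow. Several of the genes also work outside bone, since macrophages make Acp5 and Spp1, fibroblasts make Ctsk, vessels make Alpl and some neurons make Spp1.

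Acp5 and Ctsk, the pair taken as osteoclast genes, were lower in the ganglia than in the skin. Acp5 encodes tartrate-resistant acid phosphatase, the classic stain of osteoclasts, and lies on chromosome 9 from 21931175 to 21940190 (NCBIM37, the same assembly as the mm9 of the files). Its normalized read count, which is the count after scaling each library for depth, was 106, 45.6 and 112 in female DRG libraries 1, 2 and 3 and 30.4, 38.3 and 29.1 in male DRG libraries 1, 2 and 3. All 3 female libraries lay above all 3 male libraries, but female library 2 was closer to the males than to the other females. In hind paw Acp5 stood at 258, 344 and 308 in females and 328, 259 and 277 in males, where the sexes overlapped. Ctsk encodes cathepsin K, the collagen-degrading protease, and lies on chromosome 3 from 95303208 to 95313284. Its normalized count was 130, 94.7 and 141 in female DRG and 83.0, 95.7 and 68.2 in male DRG, so that the highest male library passed the lowest female library. Hind paw held 356, 281 and 273 in females and 497, 344 and 413 in males. The DRG libraries lay below the hind paw libraries for both genes, by a fitted log2 fold change of -2.39 for Acp5 and -1.82 for Ctsk. In bulk samples such as these, fewer cells of a type and less RNA per cell cannot be told apart.

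Ibsp was nearly confined to the ganglia among these libraries. It encodes bone sialoprotein, a glycoprotein that seeds mineral in new bone, and lies on chromosome 5 from 104728190 to 104740488. Female DRG libraries held 68, 66 and 96 reads of Ibsp and male DRG libraries 63, 58 and 54, against 1, 0 and 3 in female hind paw and 1, 1 and 2 in male hind paw. The DRG libraries thus held 405 reads in sum and the hind paw libraries 8. Normalized counts of Ibsp were 66.9, 56.8 and 101 in female DRG and 51.8, 69.4 and 60.4 in male DRG, and the sexes overlapped.

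Dmp1, a neighbour of Ibsp that encodes an acidic matrix protein of osteocytes and lies from 104631632 to 104643121, had fewer reads. Female DRG libraries held 16, 18 and 29 reads of it and male DRG libraries 13, 8 and 3, against 3, 2 and 5 in female and 3, 0 and 4 in male hind paw. All female DRG libraries were above all male DRG libraries, at normalized counts of 15.7, 15.5 and 30.5 against 10.7, 9.57 and 3.36. Male DRG library 3 overlapped the hind paw libraries.

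Spp1 encodes osteopontin, a phosphorylated matrix protein that bone cells, macrophages and some neurons secrete, and lies on chromosome 5 from 104864137 to 104870069. Its normalized count was 3229, 2281 and 2915 in female DRG and 2511, 3449 and 2779 in male DRG, and the sexes were intermixed. In hind paw it was 190, 135 and 313 in females and 116, 341 and 250 in males. The 11 skeletal muscle genes varied with the same hind paw libraries, with sums of 9635, 3761 and 13446 CPM in females and 4204, 18529 and 13807 in males. Female library 2 and male library 1 were the 2 lowest and male library 2 the highest of the hind paw for both, and the part of muscle in the level of Spp1 was not tested. The study's methods say that the biopsies did not reach muscle. The tissues did not overlap for Spp1, and its fitted log2 fold change of DRG over hind paw was 3.70.

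Dmp1, Ibsp and Spp1 are neighbours in a stretch of 238.4 kb on chromosome 5, from 104631632 to 104870069 (NCBIM37), in the cluster that encodes the small integrin-binding glycoproteins of bone and tooth, and the mean of each was higher in DRG than in hind paw. Because these neighbours shared that difference, the promoter of each is shown. The sequences came from RefSeq on the later build GRCm38.p6, whose coordinates are not those of NCBIM37, and 7 of the 8 genes had 12 promoter windows there. They are written 5′ to 3′ on the plus strand, from chr5:104202367-104202666 for the second listed start of Dmp1, chr5:104299037-104299336 for Ibsp and chr5:104434861-104435160 for the first listed start of Spp1. Capitals mark the letters TGTGGT, or ACCACA when read from the other strand, which form the core that RUNX proteins bind, Runx2 of osteoblasts among them. It was the only motif searched, on both strands.
Dmp1: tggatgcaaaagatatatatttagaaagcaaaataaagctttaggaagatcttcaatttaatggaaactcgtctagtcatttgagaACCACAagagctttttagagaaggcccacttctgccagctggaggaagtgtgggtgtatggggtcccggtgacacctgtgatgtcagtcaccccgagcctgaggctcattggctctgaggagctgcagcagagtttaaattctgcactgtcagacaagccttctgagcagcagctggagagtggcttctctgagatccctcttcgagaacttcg
Ibsp: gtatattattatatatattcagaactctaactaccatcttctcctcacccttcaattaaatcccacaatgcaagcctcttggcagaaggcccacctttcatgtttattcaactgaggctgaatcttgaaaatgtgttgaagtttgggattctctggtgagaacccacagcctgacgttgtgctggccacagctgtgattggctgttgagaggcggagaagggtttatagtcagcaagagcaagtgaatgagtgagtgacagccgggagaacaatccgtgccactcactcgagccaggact
Spp1: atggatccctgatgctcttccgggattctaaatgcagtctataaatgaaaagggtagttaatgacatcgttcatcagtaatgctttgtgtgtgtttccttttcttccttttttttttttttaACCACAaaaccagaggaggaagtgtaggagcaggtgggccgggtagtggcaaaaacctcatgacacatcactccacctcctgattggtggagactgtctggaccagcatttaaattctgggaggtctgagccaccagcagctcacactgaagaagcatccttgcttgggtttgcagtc
The letters stood at position -164 from the start of Dmp1 and at -128 from that of Spp1, and in no other of the 12 windows. Dmp1 and Spp1 each had another listed start whose window lacked the letters, so the windows shown for them are those that held the letters. Thus 2 of the 12 windows held them, and of all 32851 promoter windows of this length 16.8% did, so nothing is read from that count. A match is a description of the letters and not of a bound site.

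Sp7 encodes osterix, the zinc finger factor without which osteoblasts do not form, and lies on chromosome 15 from 102187040 to 102197285. It had 13, 5 and 5 reads in female DRG and 13, 3 and 5 in male DRG, and 5, 2 and 0 in female and 4, 2 and 1 in male hind paw. The tissues overlapped, and Sp7 had too few reads to pass the filter of 10 counts in 3 libraries. Every test here used that filter except the alternative with no filter. Alpl, on chromosome 4 from 137297648 to 137352299, encodes the tissue-nonspecific alkaline phosphatase that frees phosphate for mineral. Its normalized count was 112, 99.0 and 94.5 in female DRG and 103, 78.9 and 82.8 in male DRG, and 68.9, 62.3 and 21.7 in female and 22.6, 42.8 and 29.8 in male hind paw. Every DRG library was above every hind paw library for Alpl. Phex, on the X chromosome from 153596618 to 153853244, encodes an endopeptidase of osteocytes that governs phosphate. Its normalized count ran from 13.8 through a median of 17.0 to 25.2 in the 6 DRG libraries and from 14.4 through 19.1 to 31.5 in the 6 hind paw libraries, so the tissues overlapped.

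**Figure D1:**
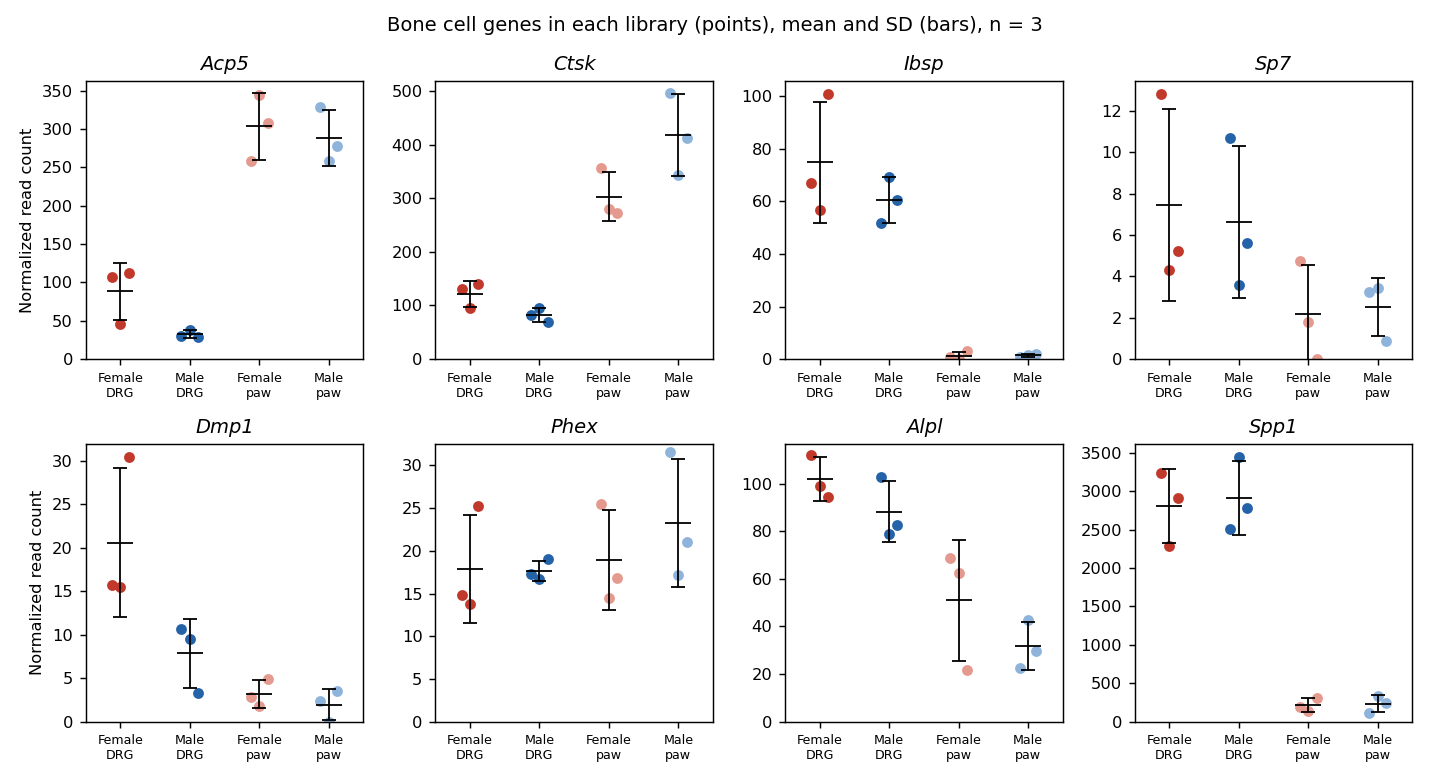
Normalized read count (vertical axis, from 0) of each of the 8 genes in female and male DRG and hind paw. Points are libraries 1 to 3 of a group from left to right, and the black marks are the mean and SD (n = 3), with SD bars ending at the axis where they would pass below 0. Ibsp, Alpl and Spp1 have every DRG library above every hind paw library, and Acp5 and Ctsk have every DRG library below.

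Of the 8 genes, 5 did not overlap between the tissues, 3 of them with DRG higher, in a data set where 71.9% of 15666 tested genes did not overlap between DRG and hind paw. Since the levels in the tissues chose the genes, nothing is read from that count.

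Per length of transcript, as RPKM, which is the CPM of a gene divided by its length in kilobases, Spp1 led in DRG with a mean of 162 and no overlap with the next gene. Ctsk at 6.43, Acp5 at 3.49, Ibsp at 3.06 and Alpl at 2.20 followed in mean RPKM, each overlapping its neighbour in this order. Dmp1 at 0.480, Phex at 0.264 and Sp7 at 0.216 RPKM were lower than Alpl in every DRG library and overlapped each other in that order. Spp1 exceeded 99.4% and Ibsp 53.4% of the 21715 genes with a known length in mean RPKM in DRG, and Sp7 exceeded 30.5%. In hind paw the order of mean RPKM was Ctsk at 22.7, Acp5 at 17.1 and Spp1 at 12.7, neighbours that overlapped, then Alpl at 0.957 and Phex at 0.313, which stood clear of their neighbours. Dmp1, Sp7 and Ibsp, at 0.0873, 0.0719 and 0.0615 RPKM in hind paw, did not differ beyond their spread.

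The sexes were compared for the 7 genes with enough reads in DRG. The genes were selected on the counts of these same libraries of both sexes, so the comparisons of the sexes are not independent of that choice, and the counts of genes in them are a description. With edgeR's quasi-likelihood test and Benjamini-Hochberg adjustment over 14456 genes, 0 of the 7 passed an adjusted p of 0.05, against 0.0484% of all genes tested. DESeq2 called 1, Acp5, where it called 0.104% of all genes. At an unadjusted p below 0.05, 3 of the 7 were higher in females, Acp5, Ctsk and Dmp1, against 3.36% of all genes tested. Every female DRG library lay above every male DRG library for Acp5 and Dmp1, 2 of the 8, and for 4.89% of all genes tested. The fitted log2 fold change of females over males was positive for 6 of the 7 and negative for Spp1, with a median of 0.33 over the 7 and 0.0015 over all genes.

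Acp5 had the largest of these differences with all DRG libraries in the fit. Its mean normalized count was 88.1 ± 36.9 in female DRG and 32.6 ± 4.97 in male DRG (SD, n = 3 each), which is a log2 fold change of 1.45 (standard error 0.34), and its adjusted p was 0.743 in edgeR's quasi-likelihood test. The adjusted p of Acp5 was 0.0223 in DESeq2 and ran from 0.0223 to 0.987 over all alternatives, among them 0.0583 without female DRG library 2 and 0.974 without male DRG library 1, the library rich in muscle genes. The log2 fold change of Acp5 lay between 1.26 and 1.77 with each DRG library left out in turn. Dmp1 had means of 20.6 ± 8.56 and 7.87 ± 3.95 in female and male DRG (SD, n = 3 each), with a log2 fold change of 1.34 (standard error 0.45) and an edgeR adjusted p of 0.743. Leaving out each DRG library in turn put the log2 fold change of Dmp1 between 0.98 and 1.67. It passed that of Acp5 without male library 1 (1.67 against 1.39) and without female library 1 (1.48 against 1.27). Ctsk, at 122 ± 24.1 and 82.3 ± 13.8 (SD, n = 3 each), differed by 0.58 on the log2 scale (standard error 0.19), and its adjusted p by edgeR was also 0.743. The differences of Acp5, Dmp1 and Ctsk were thus not established at this number of libraries. Ibsp, Alpl, Phex and Spp1 had log2 fold changes of 0.33, 0.22, 0.03 and -0.03 in DRG, and their sexes overlapped. With each DRG library left out in turn, Ibsp lay between 0.07 (without female library 3) and 0.50, and Alpl between 0.13 and 0.35.

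In hind paw 5 of the genes had enough reads, and edgeR and DESeq2 each called 0 of them, where edgeR called 0.154% and DESeq2 1.45% of the 14316 genes tested. Ctsk was the 1 gene with an unadjusted p below 0.05, and it was higher in males, as 5.49% of all genes were at that threshold. Its log2 fold change of females over males was -0.46 (standard error 0.16), with an adjusted p of 0.395 by edgeR's quasi-likelihood test, and lay between -0.59 and -0.33 with each hind paw library left out in turn. Most genes of several lists were lower in female than in male hind paw. All 12 macrophage genes tested were negative in females over males, 5 with an unadjusted p below 0.05, and 6 of 7 fibroblast genes were negative, 1 of the 7 at that threshold, with 0 of either list called by edgeR, 1 of each by DESeq2 (Lyz2 and Col3a1) and 48.7% of all genes positive. The same sign held for all 11 skeletal muscle, 8 cartilage, 6 endothelial and 4 proprioceptor genes tested in hind paw. Of these, 2 cartilage and 2 endothelial genes had an unadjusted p below 0.05. From these lists edgeR called 0 and DESeq2 called Cdh5, an endothelial gene, at -0.49. The macrophage sum was 618, 539 and 434 CPM in female and 976, 624 and 666 in male hind paw, and the fibroblast sum 4963, 4395 and 4019 in female and 8382, 5768 and 6294 in male hind paw. Every male library was above every female library in both sums. The keratinocyte sum parted the same way, at 34061, 39664 and 30195 CPM in female and 51290, 48475 and 43097 in male hind paw. So did the endothelial sum. These sums come from the same libraries and are not separate results, and the share of all genes in that order in hind paw was not counted. The part of these cells in the difference of Ctsk was not tested. Acp5, which differed most in DRG with all libraries in the fit, stood at 0.08 in hind paw (log2 fold change, standard error 0.14). Alpl at 0.75, Phex at -0.32 and Spp1 at -0.11 had wide standard errors of 0.44, 0.33 and 0.42. The sexes overlapped in hind paw for all 8 genes.

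**Figure D2:**
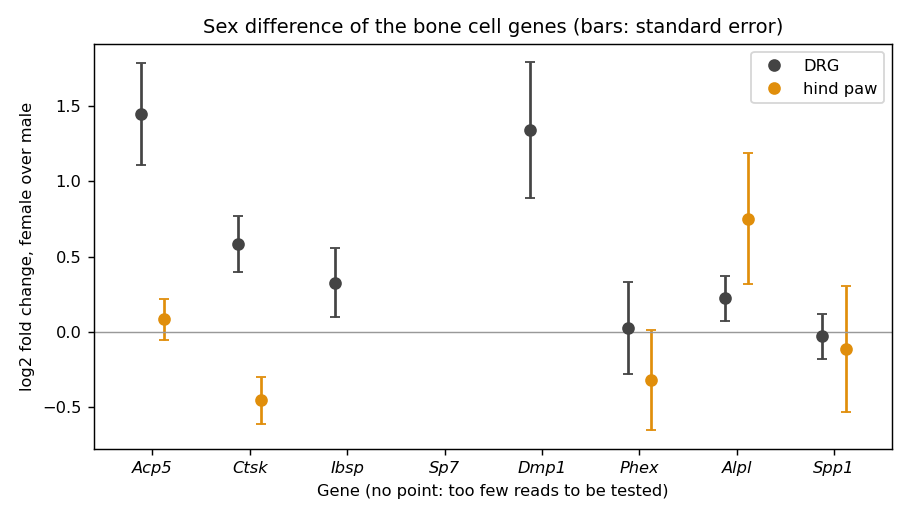
Fitted log2 fold change of females over males (vertical axis) for each gene in DRG and in hind paw. Points are estimates from 3 libraries against 3 and bars their standard errors, and a gene without a point had too few reads. Acp5 and Dmp1 stand highest in DRG, at 1.45 and 1.34.

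Whether DRG and hind paw differed in their sex difference was asked of all 12 libraries together, with the sex by tissue interaction term. Of the 7 genes that passed the filter, 5 had enough reads in both tissues. Ibsp and Dmp1 passed on their DRG reads alone, and with 8 and 17 reads in hind paw their interactions had standard errors of 1.05 and 0.98 and could hardly have been called. For the other 5 edgeR and DESeq2 each called 0, where edgeR called 0.0128% and DESeq2 0.230% of the 15666 genes. Acp5 and Ctsk had an unadjusted p below 0.05 and a positive interaction, 2 of the 5, against 4.84% of all genes. The interaction was 1.36 on the log2 scale for Acp5 (standard error 0.38), with an adjusted p of 0.360 by edgeR's quasi-likelihood test. For Ctsk it was 1.03 (standard error 0.26), with an adjusted p of 0.325 by the same test, and it joined opposite directions, 0.58 in DRG and -0.46 in hind paw. Neither difference between the tissues was established. Genes of other cells had positive interactions too, among them all 11 macrophage genes with enough reads in both tissues, from 0.49 to 1.56 and 9 at an unadjusted p below 0.05, all 7 fibroblast genes, with a median of 0.43 and 1 at that threshold, and all 6 endothelial genes. Of the macrophage and fibroblast genes edgeR called 0 and DESeq2 called Lyz2 at 1.28 and Col3a1 at 1.38, and it also called Col1a1 at 1.77 and Col1a2 at 1.18. Other lists went the other way, with 0 of 11 skeletal muscle, 1 of 8 sensory neuron and 2 of 7 keratinocyte genes positive. These counts cover genes with enough reads in both tissues, and 52.3% of all genes tested were positive. The part of other cells in the interactions of Acp5 and Ctsk was not tested.

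The 8 genes did not share 1 ranking of the DRG libraries. Female DRG library 3 was the highest of the 6 for 5 of them, Acp5, Ctsk, Ibsp, Dmp1 and Phex, female library 1 for Sp7 and Alpl, and male library 2 for Spp1. The highest library exceeded the lowest by 9.08 times for Dmp1, 3.86 for Acp5 and 3.57 for Sp7, and by 1.42 times for Alpl and 1.51 for Spp1. A score of 6 of the genes, the mean log2 level of Acp5, Ctsk, Ibsp, Sp7, Dmp1 and Phex around their means, was 0.43, -0.14 and 0.59 in female DRG libraries 1, 2 and 3 and -0.17, -0.22 and -0.49 in male DRG libraries 1, 2 and 3. Female library 2 sat beside male library 1. Among 1601 genes whose log2 level ranged over at least 1 in DRG, the 10 most like the score over the 6 libraries were Dnase1l2 (r = 0.994), Shcbp1 (0.986), Tnc (0.961), Rdh12 (0.948), 2810055F11Rik (0.916), Snhg10 (0.905), B3gnt9-ps (0.892), Gm410 (0.890), Snora28 (0.886) and Lat (0.884). These Pearson correlations rest on 6 libraries of 2 sexes that share their depth and dissection, and they are a description. Alpl and Spp1, which were kept out of the score, had r of 0.58 and 0.30 with it. Other bone genes ran both ways, from Mmp9 at 0.82 and Col1a1 at 0.77 to Runx2 at -0.35, Fam20c at -0.55 and Phospho1 at -0.88. Lists of other cells ran from 0.16 to 0.85 for vessels (highest Pecam1), 0.23 to 0.81 for macrophages (highest Cd68), 0.25 to 0.75 for fibroblasts (highest Lum), -0.60 to 0.83 for proprioceptors (highest Runx3), -0.71 to -0.08 for sensory neurons and -0.82 to -0.12 for keratinocytes, with medians of 0.36, 0.40, 0.44, -0.19, -0.40 and -0.78.

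Other genes of bone cells, from lists of markers, did not move as a block between the tissues. Of 41 genes of osteoclasts, osteoblasts, osteocytes and mineralisation, 31 had enough reads, and with edgeR's quasi-likelihood test 9 were higher in DRG and 14 higher in hind paw at an adjusted p of 0.05, against 43.0% and 42.6% of all genes. Over all 31, their median log2 fold change of DRG over hind paw was -0.22, and that of all genes was 0.002. Of the 31, 25 had enough reads in both tissues, 8 of them higher in DRG and 10 in hind paw, with a median of 0.04. The other 6 passed the filter on 1 tissue, which largely fixed their direction.

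Of 8 osteoclast genes with enough reads in both tissues, 4 were higher in DRG and 3 in hind paw. A further gene passed the filter on DRG reads alone and was higher there, and 1 passed on hind paw reads alone and was not called. Car2, the carbonic anhydrase that supplies acid, stood at 34.0 ± 3.24 RPKM in DRG and 7.61 ± 1.91 in hind paw (SD, n = 6 each), a log2 fold change of 2.18. Itgb3, the integrin chain of the sealing zone, and Ostm1, a partner of the chloride transporter, were higher in DRG by 0.92 and 0.24 on the log2 scale, and that transporter, Clcn7, was higher in hind paw, at -0.20. Tnfrsf11a, the receptor RANK that starts osteoclast formation, did not pass the test between the tissues, at 7.35 ± 0.273 and 7.13 ± 0.793 RPKM (SD, n = 6 each) and a log2 fold change of 0.04. Atp6v0d2, Dcstamp, Ocstamp and Calcr of this list were sparse in both tissues. They had 46, 16, 7 and 2 reads over the 6 DRG libraries and 66, 50, 12 and 3 over the 6 hind paw libraries. Mmp9 had 743 reads in DRG and 359 in hind paw and was higher in DRG by 1.08 (log2). Oscar, named after its values were seen, had 95 reads in DRG and 10 in hind paw, a log2 fold change of 3.17. It passed the filter on its DRG reads alone, which largely fixed its direction. The genes higher in hind paw by more than Clcn7 were Nfatc1, the factor that drives osteoclast formation, at -1.43 and Tcirg1, a subunit of the proton pump, at -0.78.

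Of 9 osteoblast genes with enough reads in both tissues, 2 were higher in DRG and 3 in hind paw. A further 4, Dlx5 (16 reads in DRG and 1758 in hind paw), Panx3 (3 and 693), Bglap3 (0 and 372) and Ifitm5 (14 and 73), passed the filter on their hind paw reads alone, and all 4 were higher there. Omd and Pth1r, a matrix proteoglycan and the parathyroid hormone receptor, were higher in DRG by 1.77 and 0.56 (log2). Col1a1 and Col1a2, the chains of type I collagen that skin fibroblasts also make, were higher in hind paw, with log2 fold changes of DRG over hind paw of -2.03 and -1.29, as was Smpd3 at -1.97. The osteocalcin genes Bglap, Bglap2 and Bglap3 had 6, 9 and 0 reads in the 6 DRG libraries, but they are near-identical copies between which reads can be lost or shared, so their counts are uncertain. A count of 0 allows up to 0.225 to 0.334 CPM in a DRG library, a limit that covers counting error only, since PCR copies of a molecule are not independent.

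Among osteocyte genes, the kinase gene Fam20c was higher in DRG by 1.40 (log2), and Pdpn, with 13.2 RPKM in DRG and 10.4 in hind paw, did not pass the test. Mepe, a further gene of the glycoprotein cluster, had 26 reads in DRG and 0 in hind paw. Of the 26, 13 were in male DRG library 1, the library rich in muscle genes, 4 and 9 in female libraries 1 and 3, and the other libraries had 0. Fgf23 had 8 and 0, and Sost had 10 and 6. Of 6 mineralisation genes tested, 1 was higher in DRG (Enpp1, at 0.71 on the log2 scale) and 4 in hind paw. Those named by abundance all lay within 1 log2 unit. Ank was at -0.27, Mgp at -0.63, Slc20a2 at -0.22, Phospho1 at -0.37 and Slc20a1, which did not pass the test, at 0.11. Cartilage genes parted, with 3 of the 5 that had enough reads in both tissues higher in DRG and 2 in hind paw, and 2 and 3 further genes that passed the filter on DRG or hind paw reads alone were higher in that tissue. Col9a2 at 5.50, Col2a1 at 5.37, Hapln1 at 3.87, Col11a1 at 1.57 and Col9a3 at 1.10 were higher in DRG on the log2 scale, Comp at -3.36, Chad at -4.69, Col9a1 at -3.94, Cytl1 at -2.18 and Acan at -1.09 were higher in hind paw, and Matn1 was at 0 in all 12 libraries.

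**Figure D3:**
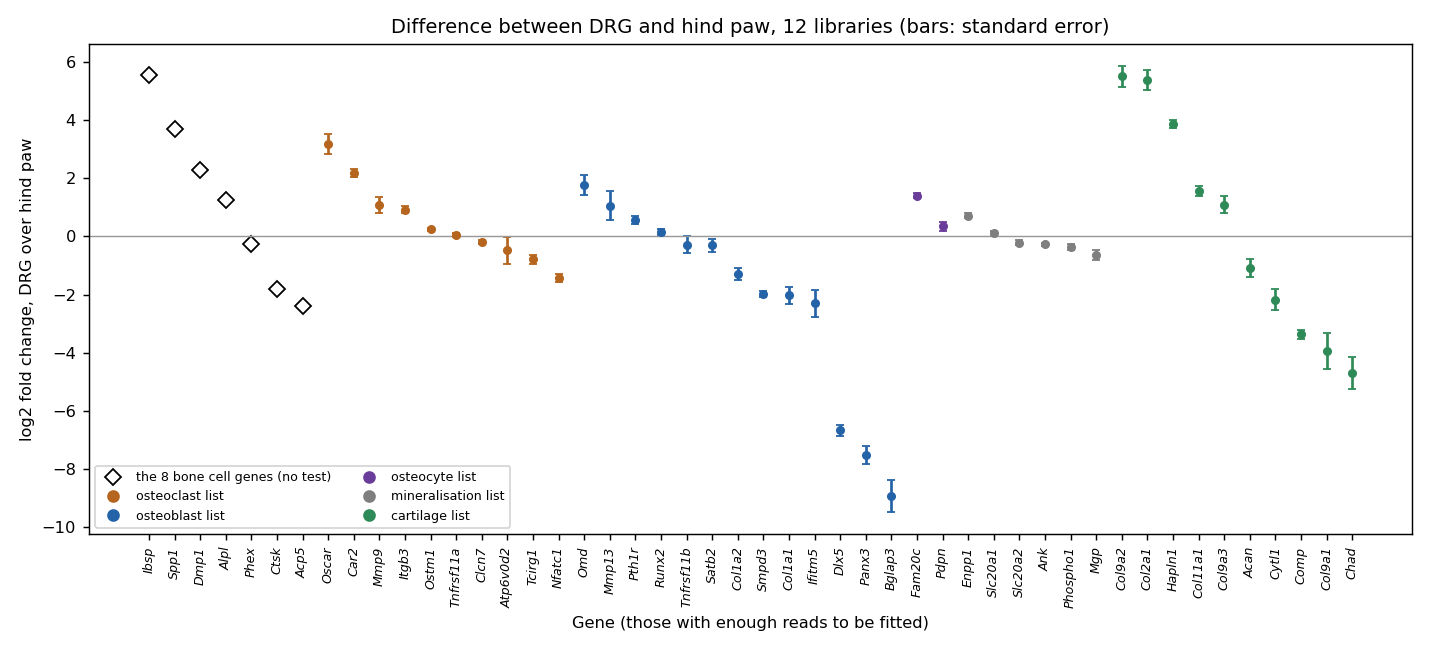
Fitted log2 fold change of DRG over hind paw (vertical axis) for the genes with enough reads, 12 libraries. Open diamonds are 7 of the 8 bone cell genes, which carry no test or error bar because their levels chose them, and filled points are listed genes with standard errors. Ibsp stands at 5.57 and Acp5 at -2.39, and each list holds genes on both sides of 0 except that of osteocytes.

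Between the sexes in DRG, 26 of these 41 bone genes were tested with edgeR, 0 were called, and 4 had an unadjusted p below 0.05, against 6.01% of all genes. Their median log2 fold change of females over males was 0.12, and that of all genes 0.0015. Mmp9, a gelatinase of osteoclasts and neutrophils that was named after its values were seen, was at 0.74 with every female library above every male library, and Col1a1 and Tcirg1 were at 0.57 and 0.45. Pth1r went the other way at -0.34, with every male library above every female library. The edgeR adjusted p was 0.743 for Mmp9 and Col1a1. DESeq2 also called 0 of the 26. In hind paw Col1a1 stood at -1.21, which DESeq2 called and edgeR did not.

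Marker genes of marrow and of other cells were read in the same DRG libraries. Over all genes tested in DRG, 50.5% had a positive log2 fold change of females over males, and the share with an unadjusted p below 0.05 was 6.01%, or 3.36% for those higher in females. Of 11 tested genes of neutrophil precursors, the 3 with enough reads in both tissues were higher in DRG than in hind paw by edgeR, and the other 8 passed the filter on their DRG reads alone, which largely fixed their direction. All 11 had a positive log2 fold change of females over males in DRG, 5 with an unadjusted p below 0.05. With edgeR 0 of them were called, and with DESeq2 1, Mpo, which edgeR put at an adjusted p of 0.376. Their sum was 212, 223 and 194 CPM in female DRG libraries 1, 2 and 3 and 85.9, 164 and 192 in male DRG libraries 1, 2 and 3, and S100a9 had the highest RPKM of the list at 89.0. Female library 2 was the highest of the 6 for this list. For Acp5 and for the score of 6 genes it was the lowest female library, above every male library. Of 8 tested genes of erythroid precursors, the 2 with enough reads in both tissues were higher in DRG, 6 passed the filter on DRG reads alone, and 7 of the 8 had a positive sex difference in DRG, 3 with an unadjusted p below 0.05, with sums of 82.9, 84.2 and 63.6 in females and 19.7, 48.1 and 69.4 in males. Alas2 was the most abundant of them at 6.55 RPKM, and the hemoglobin genes Hba-a1, Hba-a2, Hbb-b1 and Hbb-b2 were listed at 0 in all 12 libraries. These are close copies of each other, and reads that aligned to more than 1 place were not counted. Their 0 thus does not show that hemoglobin RNA was absent. Of 5 tested genes of B-cell precursors, 3 passed the filter on DRG reads alone and the other 2 went 1 each way between the tissues. The list summed to 101, 96.3 and 91.1 in females and 98.4, 96.9 and 90.6 in males, led by Ebf1 at 8.86 RPKM. Vpreb2, a close copy of Vpreb1, was at 0, with the same limit as the hemoglobin genes. Ebf1, whose sex difference was -0.05, held 5648 of the 6246 reads of that list, and the other 4 tested were positive, 2 with an unadjusted p below 0.05. Rag1 was at 1.49 with every female library above every male library, Il7r was at 1.26, and the median of the 5 was 0.61. Of 4 megakaryocyte genes tested, 0 were higher in DRG, and their sums were 12.9, 16.4 and 22.9 in females and 11.7, 9.94 and 18.2 in males, led by Pf4 at 5.05 RPKM, and 2 of the 4 were positive between the sexes.

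Macrophages make Acp5 too, and their 12 listed genes summed to 364, 238 and 208 CPM in female DRG and 168, 216 and 208 in male DRG. All 11 tested in DRG had a positive log2 fold change of females over males, 4 with an unadjusted p below 0.05 and 0 called by edgeR or DESeq2, and Lyz2 was the most abundant at 41.1 RPKM. Of the 11 with enough reads in both tissues, 9 were higher in hind paw, as Acp5 and Ctsk were, and 1 in DRG. Of all genes, 42.6% were higher in hind paw and 43.0% in DRG. Trem2 passed the filter on hind paw reads alone, which largely fixed its direction, and was higher there. The 7 fibroblast genes, led by Dcn at 465 RPKM, summed to 2261, 1647 and 1573 in female and 1331, 1881 and 1443 in male DRG, and 6 of them were higher in hind paw. All 7 were positive between the sexes in DRG, with a median of 0.45, 2 with an unadjusted p below 0.05 and 0 called by edgeR or DESeq2. The 6 endothelial genes, led by Cdh5 at 14.1 RPKM, summed to 216, 178 and 192 in female and 185, 194 and 184 in male DRG, and 4 of the 6 were positive. None of the macrophage, fibroblast or endothelial genes was at 0 in DRG. The skeletal muscle sum, led by Acta1 at 60.8 RPKM, was 79.3, 263 and 438 in female and 2235, 553 and 65.7 in male DRG, and 0 of the 11 were positive. The part of any of these cell types in the levels or sex differences of the 8 genes was not tested.

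Spp1, which neurons also make, can be set beside the neuronal lists. The 4 proprioceptor genes, led by Pvalb at 63.9 RPKM, summed to 296, 353 and 358 CPM in female and 445, 363 and 348 in male DRG, and the 14 sensory neuron genes, led by Uchl1 at 772 RPKM, to 9660, 11562 and 12046 in female and 13441, 12175 and 12964 in male DRG. Of those 14, 0 were positive between the sexes, 5 had an unadjusted p below 0.05 and 0 were called by edgeR or DESeq2. For 4 of them every male library was above every female library. The share of all genes in that order was not counted, and in the reverse order it was 4.89%. Pvalb, which muscle fibers also make, was higher in hind paw, at 255 RPKM and a log2 fold change of -2.03, and in DRG it had 1752 reads in male library 1, the library rich in muscle genes, and 429 to 669 in the others. The 6 spinal cord genes, led by Aqp4 at 2.65 RPKM and with Opalin at 0, summed to 30.7 to 45.6, and the 9 keratinocyte genes counted, led by Krt10 at 10.5 RPKM, to 26.2 to 74.1 CPM in DRG. Their part in the level of Spp1 was not tested.

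**Figure D4:**
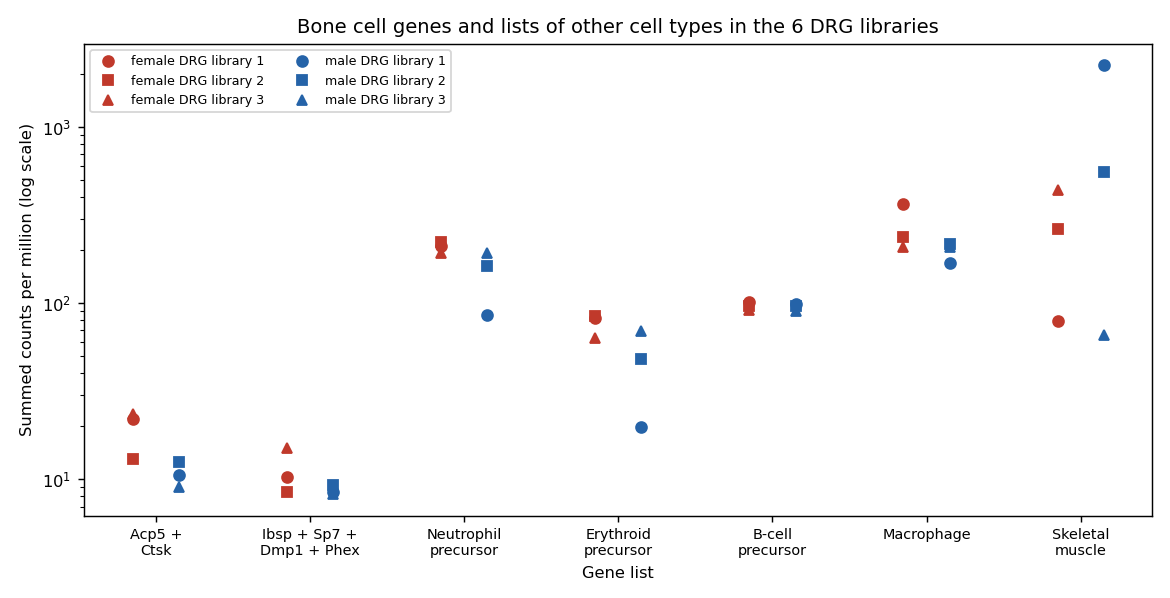
Summed CPM (vertical axis, log scale) of Acp5 and Ctsk, of Ibsp, Sp7, Dmp1 and Phex, and of 5 lists of other cell types in the 6 DRG libraries. Red points are female and blue points male libraries, and the shape gives the library number. Acp5 and Ctsk together sit at 13.1 to 23.6 in females and 9.08 to 12.5 in males, and the muscle list is highest in male library 1.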

How the data were processed

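The authors aligned the reads with TopHat2 to mm9 and counted them on genes with HTSeq, and deposited the raw, unscaled read counts of 22609 gene symbols per library. The submitters' processing notes give no versions. The labels describe a stranded kit with ribosomal RNA depletion and paired reads of 100 bp, and the methods oligo-dT priming with an mRNA kit and single reads of 50 bp. Reads with no feature (30.9% to 35.6%) and reads that were not unique (37.3% to 55.5%) were left out. The reads that were not unique may lie within genes. A count of 3, the floor used, is 0.223 to 0.437 CPM.

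The sexes were compared in DRG and in hind paw separately, and the tissues and the sex by tissue interaction over 12 libraries, with edgeR 4.0.16 (quasi-likelihood F-test, RLE factors, Benjamini-Hochberg adjustment, genes with 10 counts in 3 libraries) in R 4.3.3. Lengths came from GENCODE for NCBIM37, which matched 21715 symbols, and no exon of another gene overlapped those of the 8 genes. Tables were made in python 3.11.15. The fits were also run on simulated counts in which 200 genes were changed by 2 on the log2 scale. The spread setting there was the same for every gene, so that run does not measure how well differences of the 8 genes could be found. Alternatives were DESeq2 1.42.0, TMM factors, no filter, 12 libraries in 1 fit, the replicate number as a block and leaving out each library.

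The 8 genes and the marker lists were chosen with earlier results of these data known. Named genes were the 8, up to 5 genes with the highest mean RPKM in DRG of each bone or cartilage list, the most abundant gene and the genes at 0 of each other list reported here, the 10 genes most like the score of 6 of the genes, and Xist and Ddx3y. Sparse or further genes named beside these were chosen after their values were seen.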

Additional observations from a re-analysis of the deposited data

How the results depend on the processing

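The number of genes with an adjusted p below 0.05 depended on the test and the libraries. For the sexes in DRG, edgeR called 7 genes, DESeq2 15, and 1 to 6 when a library was left out, with 1 without male DRG library 1, 2 or 3. In hind paw it called 22, DESeq2 208, no filter 40, all 12 libraries in one fit 88 and the replicate block 8, and 1 to 8 with a library left out, the lowest without male library 2. For the interaction it called 2, DESeq2 36, no filter 4 and the replicate block 1, and 0 to 4 with a library left out, 0 without female hind paw 1 or 3, female DRG 2 or 3 or male DRG 1 or 3. The labels do not say that equal numbers share a mouse or a day, and libraries of the same number did not deviate together, with correlations from -0.35 to 0.25. The block left 5 genes for the sexes in DRG. Of the 8 genes, Acp5 in DRG was the only one whose call changed, with DESeq2. Leaving out a library reversed small differences, with log2 ranges for the sexes in DRG of -0.27 (without female 3) to 0.19 for Phex and -0.16 to 0.12 (without male 2) for Spp1, in hind paw of -0.007 (without female 2) to 0.19 for Acp5 and -0.51 to 0.23 (without male 2) for Spp1, and for the interaction of -0.17 (without female hind paw 2) to 1.65 for Ibsp and -0.27 (without male hind paw 2) to 0.44 for Spp1. The cause was not tested, beyond fewer libraries. The tissue comparison called 13406 genes, and 13152 to 13346 with a library left out. With 3 to 29 reads per DRG library, Sp7 and Dmp1 were limited by depth.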
